A study of Mus musculus with 6 samples.

Results

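The potassium channel gene family of the mouse heart was followed in 2 lines of mice that carried a fatty acid synthase (FASN) transgene and in control mice. Members were all genes whose symbol in the array annotation starts with Kcn. There were 84 of them, among 18194 genes with a probe set of a single symbol, and each was read by the brightest of its probe sets. The 84 genes had 167 probe sets in all, between 1 and 6 per gene. They comprised 31 voltage-gated pore-forming subunits, 15 inward rectifiers, 12 channels with paired pore domains, 8 calcium- or sodium-activated channels, 15 accessory subunits or regulators, and 3 transcripts that code for no protein.

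RNA from whole hearts was hybridised to 6 Affymetrix arrays. Each of 3 groups had 2 arrays: a transgenic line expressing much FASN in the heart, another expressing little, and B6 control mice matched for age. The tissue label reads transgenic heart even for the controls, and the titles were used to form the groups. All mice were males labelled C57BL/6J, and no age is given in the sources used here. The alpha-MHC promoter, specific to heart muscle, drove the transgene. Since 1 line stands for each FASN level, level and line cannot be told apart. Whether the 2 arrays per group stand for different hearts is not stated. All p-values therefore rest on the spread among arrays, and that spread may be technical.

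Potassium channels carry the outward currents that end the cardiac action potential and hold the resting potential. Voltage-gated alpha subunits form the transient outward and delayed rectifier currents of repolarisation. Inward rectifiers set the resting potential, and some of them respond to acetylcholine or to ATP. Channels with paired pore domains carry background currents, and accessory subunits alter the gating and surface level of the pore-forming proteins. In mouse ventricle the transient outward current and fast delayed rectifiers dominate repolarisation.

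The targeted gene followed the labels. Fasn read 2268 and 2104 in high-FASN hearts, 462 and 481 in low-FASN hearts, and 213 and 187 in control (signal, arbitrary units). Cardiomyocyte markers were bright in every group. Their 6 genes (Myh6, Tnnt2, Tnni3, Actc1, Myl2 and Myl3) had a median log2 difference of 0.25 in high-FASN hearts and -0.14 in low-FASN hearts against control, and of 0.39 between the lines. Markers of other tissues were uneven. Of 7 airway markers tested, 4 were higher than control in high-FASN hearts and 1 in low-FASN hearts, and 0 were lower. Of 3 adipocyte markers tested, 2 were higher in each line. Of 5 skeletal muscle markers 4 (Myh4, Myh1, Actn3 and Tnnt3) were dim. In bulk tissue, fewer cells of a type and less RNA per cell cannot be told apart.

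Of the 84 genes, 31 were bright enough to be tested and 53 were dim. The filter required a mean log2(signal + 16) over the 6 arrays of at least 5.98, the median of all probe sets, which corresponds to a signal of 47.0. Kcnmb4 (6.05) and Kcnk2 (6.11) lay just inside it, and Kcnmb1 (5.91) and Kcnmb2 (5.89) just outside. Among the tested genes Kcnj15, Kcnk1, Kcnk2 and Kcnmb4 had a group mean below the filter. The counts that follow are therefore over genes that passed, not over the family. Across the 31 genes, Pearson's r on log2 values was 0.978 to 0.993 within groups and 0.870 to 0.965 between them. These are correlations across genes, which are not independent replicates.

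High FASN was first set against control, to ask which channel genes differ in hearts with strong FASN expression. Here 9 of 31 (29%) Kcn genes passed limma's test at an adjusted p below 0.05, 8 higher and 1 lower. Over all 22519 probe sets tested, 14.4% were called, 8.18% higher and 6.18% lower. With 1 probe set per gene, the called share over all genes was 19.1%. The median log2 difference was 0.19 over the 31 genes and 0.037 over all probe sets tested. Without control array 1 only 2 Kcn genes were called and without control array 2 only 4, and an untrended variance model called 5. The called share over all probe sets tested fell as well under these settings, to 7.19%, 6.21% and 5.48%.

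The low line was set against the same control arrays, so these 2 comparisons are linked. There 12 of 31 Kcn genes were called, 6 higher and 6 lower, beside 24.3% of all probe sets tested (13.5% higher and 10.8% lower, and 30% of genes with 1 probe set each). The median was 0.077 over the 31 genes and 0.018 over all probe sets. Fewer Kcn genes passed without low-line array 1 or control array 2, and the called share over all probe sets tested fell as well. Between the lines 5 of 31 genes differed, 4 higher and 1 lower in high-FASN hearts, beside 18.6% of all probe sets tested (9.69% higher and 8.87% lower). That share was no larger than the background. In all, 13 genes were called in at least 1 comparison and 18 in none.

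**Figure D1:**
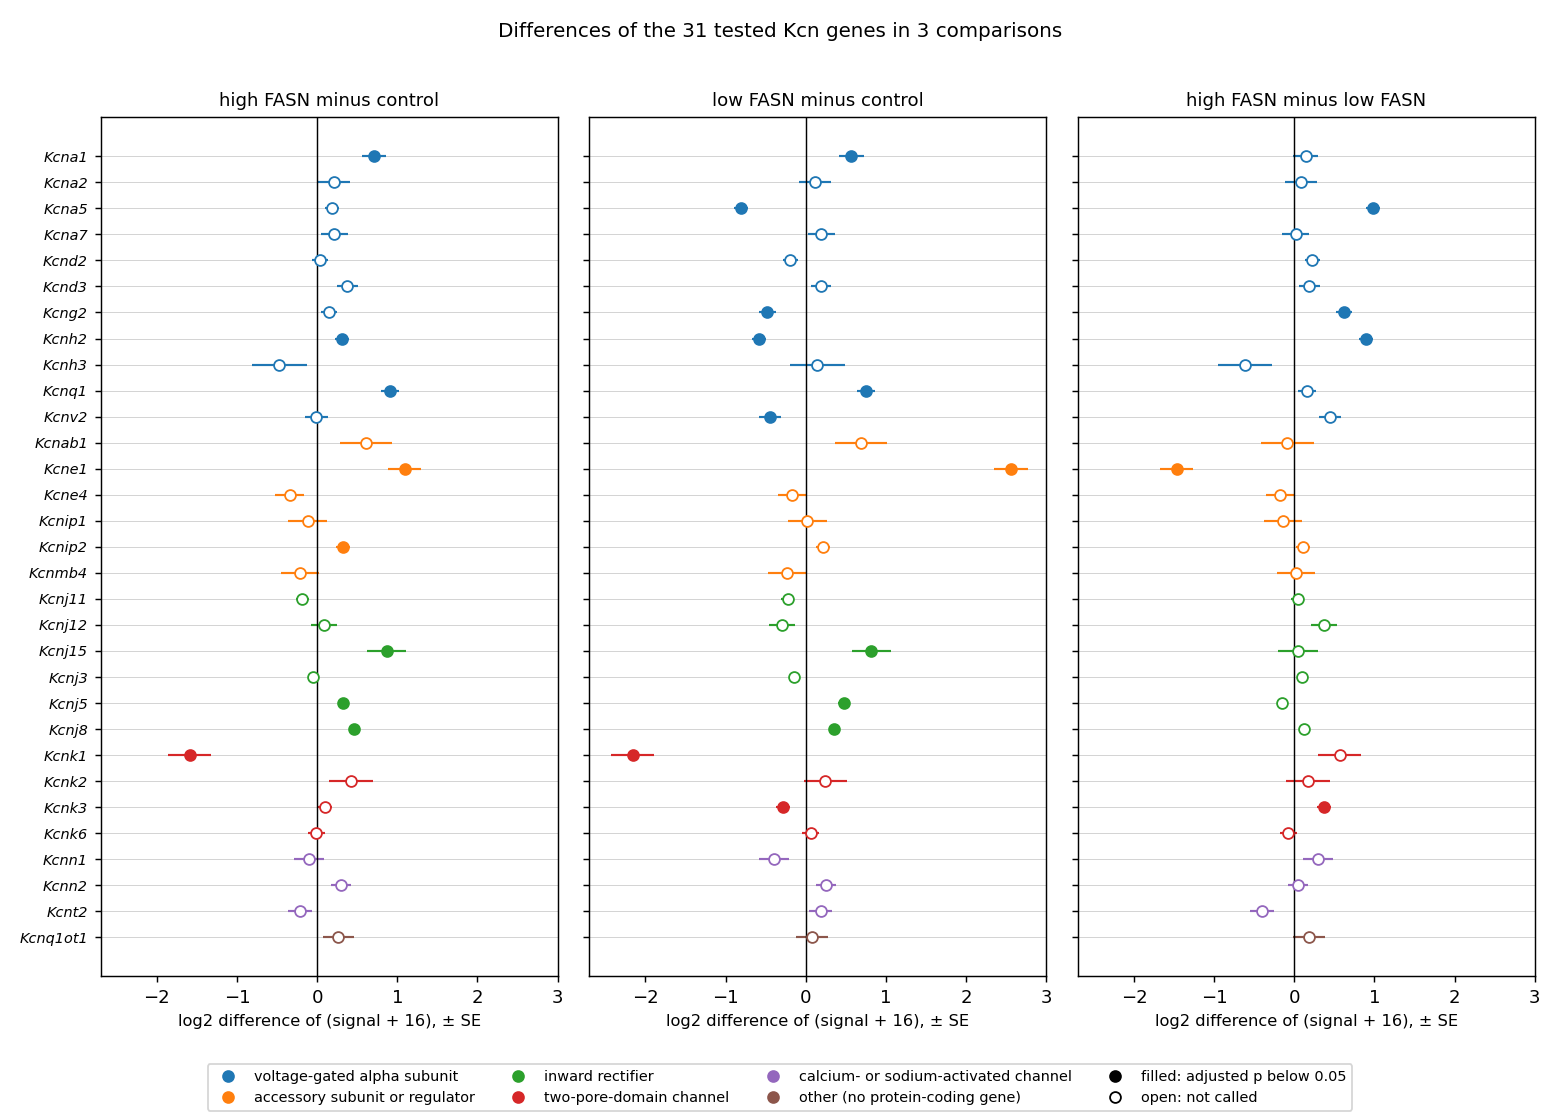
Log2 differences of (signal + 16) with SE for the 31 tested Kcn genes in the 3 comparisons, coloured by subfamily, with filled points for an adjusted p below 0.05. Kcne1 reached 2.56 in low-FASN hearts and Kcnk1 -2.16, while most genes lay within 1 unit of 0.

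The subunits of the slow delayed rectifier were higher in both lines. Kcnq1 encodes the pore of this channel and Kcne1 its accessory subunit, which slows its opening. Kcnq1 read 545 and 516 in high-FASN hearts, 502 and 446 in low-FASN hearts, and 255 and 295 in control. Both lines lay above both controls and near each other. It rose by 0.91 ± 0.112 on the log2 scale (SE) in high-FASN hearts (limma adjusted p = 0.000785) and by 0.75 ± 0.112 in low-FASN hearts (adjusted p = 0.00126). The lines themselves differed by 0.16, which missed the threshold (adjusted p = 0.364). Both calls against control were kept in all 18 alternative settings run for this probe set.

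Kcne1 showed another order of groups. Its signals were 151 and 110.1 in high-FASN hearts, 355 and 420.1 in low-FASN hearts, and 43.8 and 61.6 in control. No 2 groups overlapped, and the low line was highest. Kcne1 rose 5.90-fold in low-FASN hearts (2.56 ± 0.207 on the log2 scale, limma adjusted p = 4.2e-05) and 2.13-fold in high-FASN hearts (adjusted p = 0.00775). It was 2.77-fold lower in the high than in low-FASN hearts (adjusted p = 0.00166). The call in high-FASN hearts was lost without control array 1 (adjusted p = 0.0549, a log2 difference of 0.90), and the call in low-FASN hearts was kept in all 18 settings. Because the control signals lay near the filter, the sizes of these folds are uncertain. A second Kcne1 probe set was dim on average and was not tested. It read 73.6 and 48.6 in high-FASN hearts, 93.4 and 83.4 in low-FASN hearts, and 11.9 and 12.5 in control, which is the same order of groups.

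Summed marker signals of B and plasma cells, T cells, endothelium and mesothelium stood in that order too, with no overlap of groups. The sums of the other cell type lists did not, so these lists are named for their order. Only 1 of 4 T cell markers was tested. In endothelium 1 marker was higher and 1 lower in the high than in low-FASN hearts. In mesothelium 1 of 4 markers was lower there, and Wt1 was not called in any comparison. The B and plasma cell sum over 5 genes was 90.2 to 178 in control, 563 to 575 in high-FASN hearts and 2328 to 2340 in low-FASN hearts. Of these genes Cd79a and Cd79b were dim, and the 3 tested were higher in each line. The part of these cell types in the Kcne1 result was not tested. Kcne4, a subunit that inhibits several voltage-gated channels, read 173 and 173 in high-FASN hearts, 211 and 183 in low-FASN hearts, and 268 and 186 in control (log2 difference -0.34 in high-FASN hearts, adjusted p = 0.243). Kcne2, Kcne3 and Kcne1l were dim.

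**Figure D2:**
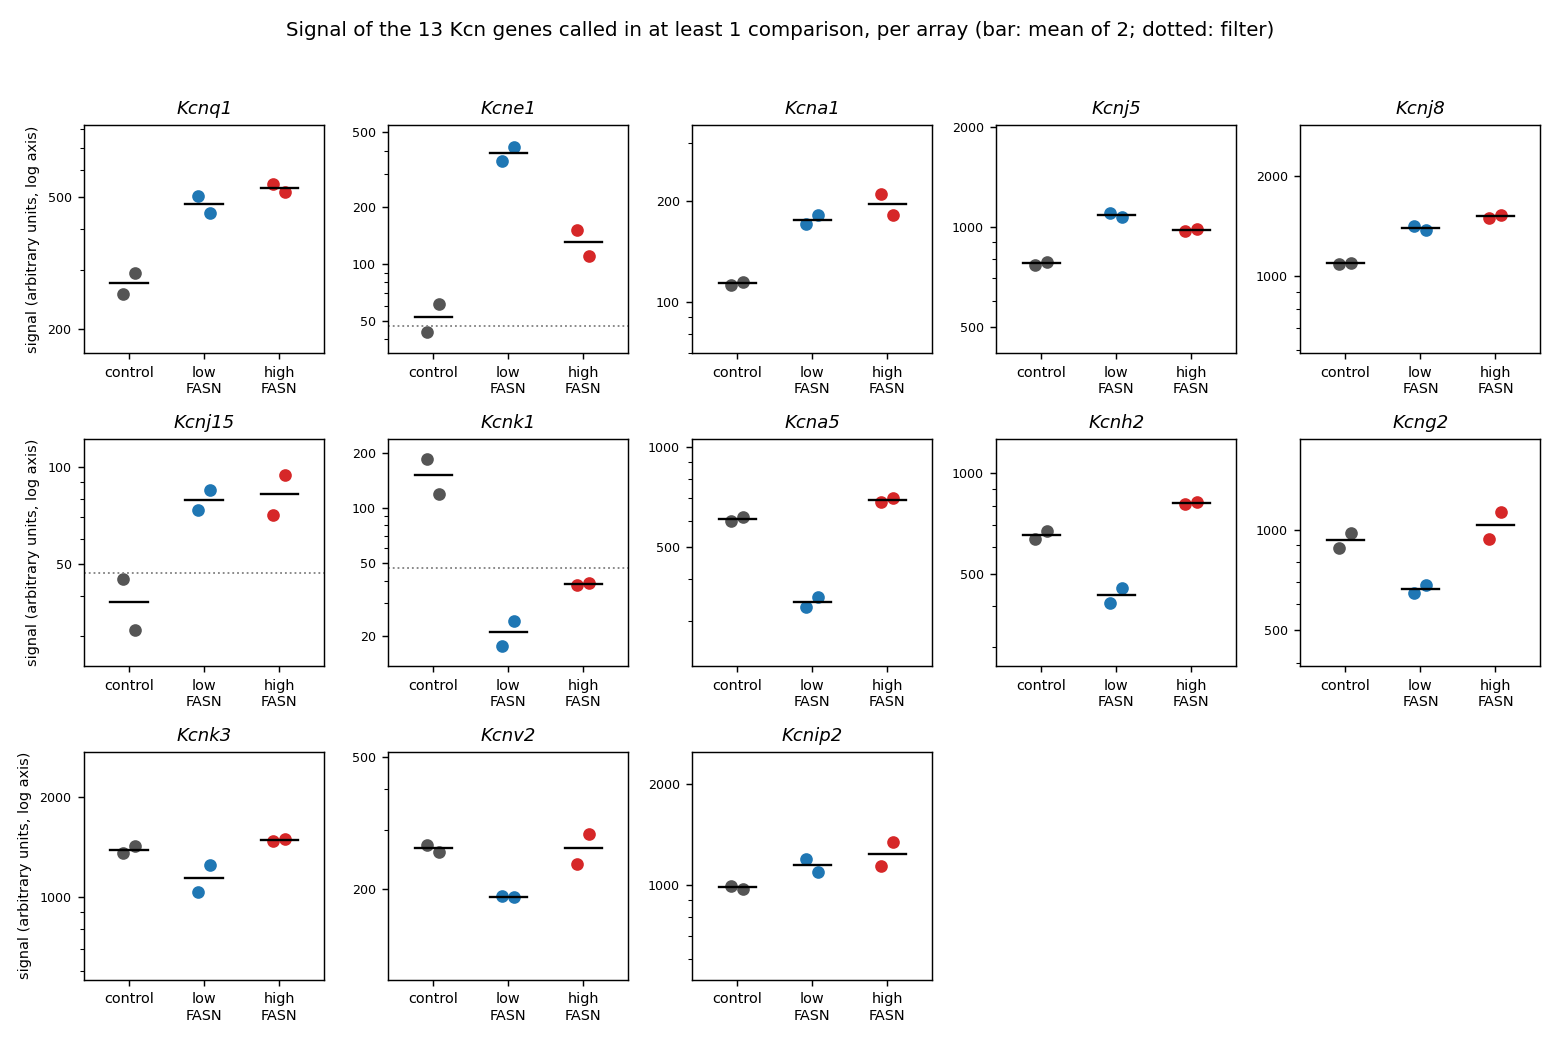
Signal per array (log axis, a separate range per gene) of the 13 Kcn genes called in at least 1 comparison, with the mean of 2 arrays as a bar and the filter as a dotted line where it falls in range. Kcnq1, Kcna1, Kcnj5 and Kcnj8 lay above control in both lines, and Kcna5, Kcnh2 and Kcng2 were lowest in low-FASN hearts.

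Inward rectifiers were higher in both lines where they were called. Of 6 tested members 3 rose in high-FASN hearts and the same 3 rose in low-FASN hearts, 0 fell, and 0 differed between the lines (0 at an adjusted p below 0.05 in limma, and 1 at an unadjusted p below 0.05). The called share over all probe sets tested was 14.4% and 24.3% in these comparisons with control. Among the 3 is Kcnj15, whose control mean was below the filter, so its place among the tested genes depended on its level in the lines. Kcnj5 and Kcnj3 encode the subunits of the acetylcholine-gated channel, which slows the heart under vagal drive. Kcnj5 read 972 and 983 in high-FASN hearts, 1097 and 1070.2 in low-FASN hearts, and 767 and 784 in control. Every transgenic array was above every control array. Kcnj5 rose by 0.33 ± 0.0681 in high-FASN hearts (limma adjusted p = 0.0120) and by 0.47 in low-FASN hearts (adjusted p = 0.00106). With an untrended variance model the rise in high-FASN hearts was not called (limma adjusted p = 0.0770). The first call was lost without control array 1 (adjusted p = 0.0754) and without control array 2 (0.0608). Its partner Kcnj3 was bright and did not pass, at 2330.4 and 2333 in high-FASN hearts, 2100.4 and 2277 in low-FASN hearts, and 2373 and 2460.3 in control (log2 differences of -0.05 and -0.14). A second Kcnj3 probe set was lower in low-FASN hearts by a called amount (log2 difference -0.43, adjusted p = 0.0233).

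Atrial muscle, where this channel is abundant, was checked beside it. Of 6 atrial markers, 4 were higher in high-FASN hearts and 2 in low-FASN hearts. Their summed signal was 71558 to 77016 in high-FASN hearts, 62034 to 62243 in low-FASN hearts and 59690 to 60428 in control. None of the 6 was dim. Their part in the Kcnj5 result was not tested.

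Kcnj8 and Kcnj11 form the pores of ATP-sensitive channels, which open when ATP is low. Kcnj8 is the form of vascular muscle and Kcnj11 that of ventricular muscle. Kcnj8 read 1502 and 1535 in high-FASN hearts, 1415 and 1383 in low-FASN hearts, and 1091 and 1100.3 in control. It rose by 0.46 ± 0.0615 in high-FASN hearts (limma adjusted p = 0.0012) and by 0.35 in low-FASN hearts (adjusted p = 0.00327), with 18 of 18 alternative settings keeping both calls. Kcnj11 went the other way without passing, at 599 and 593, 589 and 569, and 677 and 682 in high-FASN hearts, low line and control (log2 differences of -0.18 and -0.23, adjusted p = 0.157 and 0.0658). The second of these passed with quantile normalization (adjusted p = 0.0439) and with cyclic loess (0.0431). Its second probe set differed between the lines, by 0.91 (adjusted p = 0.00915), where the brightest differed by 0.041.

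Smooth muscle and mural cell markers were set beside Kcnj8. All 8 were higher in high-FASN hearts and 7 of 8 in low-FASN hearts, and 0 were lower. The summed signal was 29294 to 30763 in high-FASN hearts, 29444 to 29792 in low-FASN hearts and 19751 to 20199 in control, and none of the markers was dim. Such rises were not particular to this list. In each line 3 of 5 endothelium markers and 4 of 6 fibroblast markers were higher than control, and 0 were lower. The 2 neutrophil markers were lower in each line. The part of these cell types in the Kcnj8 result was not tested.

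Kcnj15, an inward rectifier known mainly from kidney and other epithelia, passed the filter only through the transgenic arrays, with a mean log2(signal + 16) of 5.75 in control, so it had to differ. It read 71.1 and 94.5 in high-FASN hearts, 73.6 and 84.9 in low-FASN hearts, and 45.2 and 31.4 in control. It was called in both lines, by 0.87 (limma adjusted p = 0.0442) and 0.82 (adjusted p = 0.0373). With no filter the call in low-FASN hearts was lost (adjusted p = 0.121). The call in high-FASN hearts was lost in 13 of 17 alternative settings, which included each of the 6 arrays left out in turn (adjusted p from 0.0569 to 0.218) and the replicate block (0.0543). That in low-FASN hearts was lost when either low-line array or either control array was left out (adjusted p from 0.0548 to 0.188). The classical inward rectifier of ventricular muscle was read poorly. Its subunit Kcnj12 was at 312 and 284 in high-FASN hearts, 235 and 219 in low-FASN hearts, and 335 and 235 in control, with no call. The probe set of its main subunit Kcnj2 was dim, between 1.08 and 3.67 on all arrays, so no statement on Kcnj2 was possible. Kcnj4 and Kcnj14 were dim too.

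Promoter sequences are shown for Kcnj5 and Kcnj8, which rose in both lines and were above the filter in every group. Kcnj15 had an entry too and is not shown. They are the 250 bases before the gene start, from RefSeq (GRCm38.p6), written 5′ to 3′ on the gene's strand, with any GGGCGG or its reverse complement in capitals.
Kcnj5, chr9:32344345-32344594, minus strand: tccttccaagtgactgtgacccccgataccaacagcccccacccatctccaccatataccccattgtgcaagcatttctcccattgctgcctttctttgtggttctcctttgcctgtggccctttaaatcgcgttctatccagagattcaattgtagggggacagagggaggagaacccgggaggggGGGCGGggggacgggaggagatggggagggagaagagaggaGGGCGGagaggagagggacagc
Kcnj8, chr6:142571615-142571864, minus strand: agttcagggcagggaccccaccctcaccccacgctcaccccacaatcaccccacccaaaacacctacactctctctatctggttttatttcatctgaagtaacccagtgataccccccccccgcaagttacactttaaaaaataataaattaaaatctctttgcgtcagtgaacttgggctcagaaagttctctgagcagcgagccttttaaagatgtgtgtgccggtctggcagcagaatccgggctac
The Kcnj5 window held 2 matches to GGGCGG, the letters of a GC box, and was 58.0% G or C. The Kcnj8 window held 0 and was 49.2% G or C. The median over all 32851 promoters was 52.4%.

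Channels with paired pore domains held the only fall seen in both lines. Kcnk1 encodes a weak background channel. It read 184 and 119 in control, and was below the filter in both lines, at 37.9 and 39.0 in high-FASN hearts and 17.7 and 24.1 in low-FASN hearts. The groups did not overlap. Kcnk1 was 3.02-fold lower in high-FASN hearts (log2 difference -1.59 ± 0.268, limma adjusted p = 0.00436) and 4.47-fold lower in low-FASN hearts (adjusted p = 0.000471). The lines differed by 0.57, which missed the threshold (adjusted p = 0.176). Since the gene passed the filter only through the control arrays, it had to differ, and the folds are uncertain at such dim values. Without control array 1, the brighter of the 2 controls, the call in high-FASN hearts was lost (adjusted p = 0.0548, log2 difference -1.31). Its second probe set was dim, at 43.9 and 15.1 in control and 5.66 to 16.2 in the lines.

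Neutrophil markers S100a8 and S100a9, the 2 on the array of 4 listed, were lower in both lines as well. Their summed signal was 287 to 289 in control, 89.0 to 114 in high-FASN hearts and 113 to 124 in low-FASN hearts. Of 6 macrophage markers 3 were lower and 0 higher in high-FASN hearts, and 1 was lower and 1 higher in low-FASN hearts. Cd163 was lower in both lines. The part of these cell types in the Kcnk1 result was not tested. The Kcnk1 promoter is shown because it was the only member that fell in both lines.
Kcnk1, chr8:125994852-125995101, plus strand: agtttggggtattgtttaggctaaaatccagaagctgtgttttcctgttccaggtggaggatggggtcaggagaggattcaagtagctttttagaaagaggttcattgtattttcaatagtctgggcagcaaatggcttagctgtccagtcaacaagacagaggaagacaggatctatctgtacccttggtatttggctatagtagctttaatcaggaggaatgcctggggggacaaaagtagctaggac
It held 0 matches to GGGCGG on either strand.

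Kcnk3 carries an acid-sensitive background current that is prominent in atrium. It read 1469.9 and 1492 in high-FASN hearts, 1034 and 1250.1 in low-FASN hearts, and 1355 and 1419.7 in control. The 3 groups did not overlap, with control in the middle, and control lay nearer to the high line. Kcnk3 fell by 0.28 ± 0.0882 in low-FASN hearts (limma adjusted p = 0.0434), and was higher by 0.38 in the high than in low-FASN hearts (adjusted p = 0.0173). With an untrended variance model neither passed (limma adjusted p = 0.155 and 0.1055), and with no filter the fall was not called (0.0945). Without low-line array 1 neither passed (adjusted p = 0.303 and 0.129), and the call against control was also lost without control array 1 (0.107) and without control array 2 (0.196). Its 2 dimmer probe sets did not share the pattern. Between the lines they stood at -0.49 and -0.14, neither of them called (adjusted p = 0.293 and 0.726). Kcnk6, a background channel of low activity, read 332 and 313, 348 and 334, and 324 and 326 in the same order of groups and did not pass. The stretch-sensitive Kcnk2 was near the filter and did not pass. Kcnk5 was dim.

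Of 11 voltage-gated subunits tested, 4 fell in low-FASN hearts and 2 rose, while in high-FASN hearts 3 rose and 0 fell. Over all probe sets tested, 10.8% fell and 13.5% rose in the first comparison, and 8.18% rose and 6.18% fell in the second. Kcna5 encodes the pore of a fast-activating delayed rectifier of mouse heart. Its signals were 681 and 703 in high-FASN hearts, 329.7 and 353 in low-FASN hearts, and 597 and 617 in control. It fell by 0.80 ± 0.0872 in low-FASN hearts (limma adjusted p = 0.000229). The difference of 0.19 between the high line and control did not pass (adjusted p = 0.196), and Kcna5 was 1.98-fold higher in the high than in low-FASN hearts (adjusted p = 0.000166).

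Kcnh2 encodes the pore of the rapid delayed rectifier. It read 809 and 822 in high-FASN hearts, 407 and 453 in low-FASN hearts, and 635 and 671 in control. The 3 groups were fully apart, with the control in the middle. Kcnh2 fell by 0.59 ± 0.0874 in low-FASN hearts (limma adjusted p = 0.00132) and was 1.86-fold higher in the high than in low-FASN hearts (adjusted p = 0.000276). The rise of 0.31 in high-FASN hearts was close to the threshold (adjusted p = 0.0416). It was lost in 12 of 18 alternative settings, among them quantile normalization (0.0558), median centring (0.0643), cyclic loess (0.0582) and each of the 6 arrays left out (from 0.0558 to 0.194). The falls of Kcna5 and Kcnh2 in low-FASN hearts, and their differences between the lines, were kept in 18 of 18.

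Kcng2 and Kcnv2 encode subunits that form no channel alone and modify others. Kcng2 read 939 and 1136 in high-FASN hearts, 646 and 683 in low-FASN hearts, and 881 and 983 in control. It fell by 0.48 ± 0.101 in low-FASN hearts (limma adjusted p = 0.00794) and was higher by 0.62 in the high than in low-FASN hearts (adjusted p = 0.00321). With an untrended variance model both calls were lost (limma adjusted p = 0.0600 and 0.0516). The fall was lost without low-line array 1 (adjusted p = 0.0660) and without control array 2 (0.0715). Kcnv2 read 237 and 292, 191 and 189, and 271 and 259 in high-FASN hearts, low line and control. With no filter or an untrended variance model its difference from control in low-FASN hearts was not called (limma adjusted p = 0.0726 and 0.0598). Its fall of 0.45 in low-FASN hearts was thin (adjusted p = 0.0404) and was lost when either low-line array or either control array was left out (adjusted p from 0.117 to 0.165). The difference of Kcnv2 between the lines just missed the threshold (0.44, adjusted p = 0.0529), and it passed in 5 other settings, such as quantile normalization (0.0496).

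Cardiomyocyte markers were compared with these falls. Between the high and the low line all 6 were higher in high-FASN hearts, with a median of 0.39, against 0.99 for Kcna5, 0.90 for Kcnh2, 0.62 for Kcng2 and 0.38 for Kcnk3. Against control their median in low-FASN hearts was -0.14, with 1 of 6 called lower, against -0.80 for Kcna5 and -0.59 for Kcnh2. Their summed signal was 177020 to 197460 in high-FASN hearts, 138280 to 141270 in low-FASN hearts and 155030 to 158950 in control, and none was dim. After quantile normalization Kcna5 differed between the lines by 1.004 and Kcnh2 by 0.921 on the log2 scale. This scaling does not adjust for the share of cell types. The part of cardiomyocyte RNA in these results was not tested.

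The promoters of Kcna5 and Kcnh2 are shown as the pair with the largest falls among voltage-gated genes, again as 250 bases before the start with GGGCGG in capitals.
Kcna5, chr6:126535556-126535805, minus strand: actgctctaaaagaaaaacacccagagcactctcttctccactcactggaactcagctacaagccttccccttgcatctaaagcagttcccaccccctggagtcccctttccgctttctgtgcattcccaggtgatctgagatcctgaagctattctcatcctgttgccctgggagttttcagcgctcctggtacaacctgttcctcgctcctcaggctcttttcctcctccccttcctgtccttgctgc
Kcnh2, chr5:24329592-24329841, minus strand: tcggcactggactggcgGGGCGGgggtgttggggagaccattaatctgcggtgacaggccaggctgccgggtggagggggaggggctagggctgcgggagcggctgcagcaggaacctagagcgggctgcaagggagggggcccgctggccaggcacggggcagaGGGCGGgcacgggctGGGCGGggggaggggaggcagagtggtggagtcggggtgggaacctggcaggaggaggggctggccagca
The Kcnh2 window held 3 matches to GGGCGG and was 73.6% G or C, whereas the Kcna5 window held 0 and was 53.2% G or C. Neither held TATAAA, the letters of a TATA box, nor the E-box letters CACGTG. Matches were sought on both strands, and a match is a description of letters, not a site. The supplied table held promoters for 64 of the 84 genes. Among the 13 called genes, promoters of 7 were read one by one, and the others had no entry or were left out. Of the 29 promoters of tested members 9 held GGGCGG (32.7% of all 32851 promoters did), 0 held TATAAA (12.4% of all) and 3 held CACGTG (10.3%, against 6.02%).

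Kcna1, which encodes a voltage-gated channel best known from neurons, rose in both lines. It lies next to Kcna5 on chromosome 6, with Kcna6 on its other side, and its pattern differed from that of Kcna5. Kcna1 read 211 and 182 in high-FASN hearts, 171 and 182 in low-FASN hearts, and 112 and 115 in control. The rises were 0.71 ± 0.154 (limma adjusted p = 0.0150) and 0.57 (adjusted p = 0.0249). A second probe set rose more, by 1.26 (adjusted p = 0.00119) and 0.97 (adjusted p = 0.00277), and the dimmest of the 3 tested stood at 0.28 and 0.090 without passing. On the brightest probe set the call in high-FASN hearts was lost without high-line array 1 (adjusted p = 0.0720), control array 1 (0.0738) or control array 2 (0.0705). The call in low-FASN hearts was lost without either low-line array or either control array (from 0.0872 to 0.137). Of the 3 tested neuron and glia markers 1, S100b, was higher in high-FASN hearts and 0 in low-FASN hearts. Snap25 and Tubb3 were dim, and the summed signal was 343 to 344 in high-FASN hearts, 296 to 367 in low-FASN hearts and 214 to 228 in control. Their part in the Kcna1 result was not tested. Kcna6 was dim.

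The genes of the transient outward current gave few calls. Kcnd2 encodes its main pore in mouse ventricle, Kcnd3 another pore, and Kcnip2 the calcium-binding subunit that brings them to the membrane. Kcnd2 read 1596 and 1860.1 in high-FASN hearts, 1600.4 and 1351 in low-FASN hearts, and 1647 and 1712 in control. Neither line passed against control (log2 differences of 0.037 and -0.19). The second Kcnd2 probe set did not pass either, and the dimmest tested one rose in high-FASN hearts by 0.62 (adjusted p = 0.0345). Kcnd3 read 533 and 442, 403 and 447, and 404 and 339 in the same order (0.38 in high-FASN hearts, adjusted p = 0.0819), and passed only without high-line array 2 (0.0375). Kcnd1 was dim.

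Kcnip2 was slightly higher in high-FASN hearts. It read 1134 and 1341 there, 1198 and 1092 in low-FASN hearts, and 994 and 968 in control. The rise was 0.33 ± 0.0899 (limma adjusted p = 0.0402). It was lost in 9 of 18 alternative settings. These included median centring (0.0572) and the omission of high-line array 2 (0.142), control array 1 (0.129), control array 2 (0.178) or either low-line array (0.0642 and 0.0640). In low-FASN hearts it was 0.22 (adjusted p = 0.110, and from 0.0421 to 0.0440 without the high-line arrays, in part or in full), and the lines did not differ beyond the spread (0.11, adjusted p = 0.455). Its second probe set was at 0.18 in the high and 0.45 in low-FASN hearts, neither called.

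**Figure D3:**
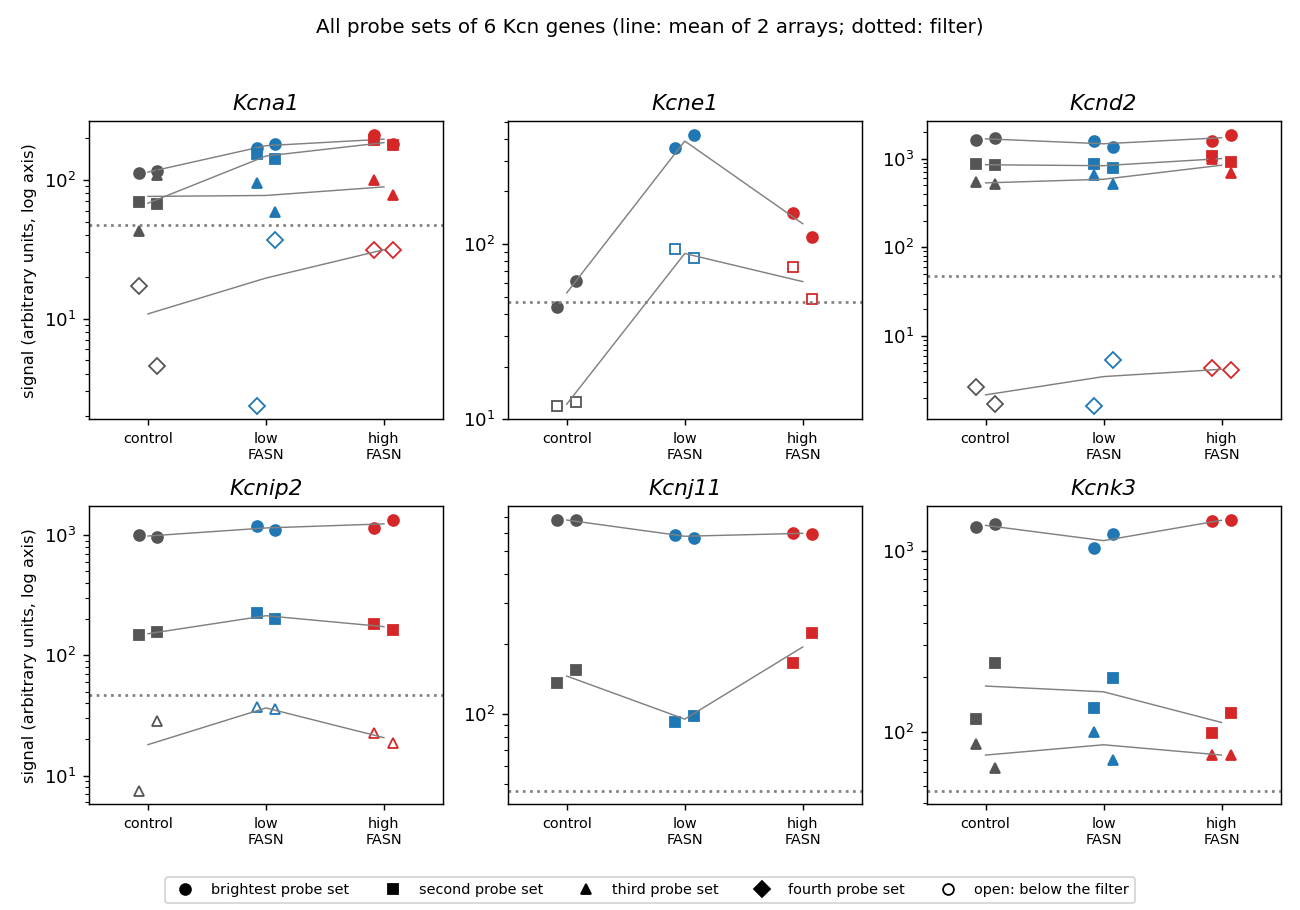
Signals (log axis) of all probe sets of 6 Kcn genes by group, with open symbols for probe sets below the filter and lines through the means of 2 arrays. The 2 Kcne1 probe sets shared the order control, high, low, while those of Kcnk3 and Kcnj11 did not share one order.

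The remaining tested genes gave 0 calls in limma's test, although 3, 2 and 3 of all 18 uncalled genes had an unadjusted p below 0.05 in the 3 comparisons. They included the small-conductance calcium-activated channels Kcnn1 and Kcnn2. Kcnn2 read 287 and 273 in high-FASN hearts, 279 and 262 in low-FASN hearts, and 239 and 212 in control (0.30 in high-FASN hearts, adjusted p = 0.149). Both lines were above both controls, but by less than the test required. Kcnn1 read 96.03 and 116, 84.2 and 82.6, and 113 and 117 in the same order. The sodium-activated Kcnt2 read 226 and 299.96 in high-FASN hearts, 329 and 371 in low-FASN hearts, and 319 and 292 in control. Without high-line array 2 it was lower in the high than in low-FASN hearts (-0.59, adjusted p = 0.0204).

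Kcnab1, an accessory subunit that speeds inactivation, differed widely between arrays of a group. It read 198 and 91.8 in high-FASN hearts, 112 and 187 in low-FASN hearts, and 92.7 and 75.8 in control (0.60 in high-FASN hearts, adjusted p = 0.257, and 0.0319 without high-line array 2). Kcnh3 read 32.6 and 96.03 in high-FASN hearts, 95.1 and 99.1 in low-FASN hearts, and 87.6 and 84.9 in control. Without high-line array 2 it was called lower in high-FASN hearts than in control (-1.07, adjusted p = 0.0198) and than in low-FASN hearts (-1.22, adjusted p = 0.0103), which rests on the single array at 32.6. Kcna7 and Kcna2, further voltage-gated subunits, Kcnip1 and Kcnmb4 gave no call. Nor did Kcnq1ot1, a non-coding transcript that runs antisense to Kcnq1. It read 103 and 111 in high-FASN hearts, 99.8 and 84.3 in low-FASN hearts, and 77.8 and 95.3 in control.

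The 53 dim genes had signals between 0.444 and 75.2. In 38 of them every array was below the filter signal of 47.0. The 3 with the brightest single array were Kcna4, Kcnmb1 and Kcnmb2. Kcna4, a pore of the slow transient outward current, read 35.2 and 39.6 in high-FASN hearts, 48.4 and 75.2 in low-FASN hearts, and 9.35 and 20.4 in control. Kcnmb1, the accessory subunit of the calcium-activated channel of smooth muscle, read 32.7 and 51.1, 68.2 and 58.1, and 23.7 and 41.4. In both genes the low line was above control on each array, but neither gene was in the main test. Kcnmb2 read 67.8 and 14.7, 55.1 and 49.3, and 37.9 and 51.8, so its groups overlapped. The pore of that calcium-activated channel, Kcnma1, was dim, as were Kcnn3, Kcnn4, Kcnab2 and the neuronal families Kcnc, Kcnf and Kcns.

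Partners of these channels without a Kcn symbol were read from a list of 34 genes, of which 27 were on the array and 22 were tested. In high-FASN hearts 4 rose and 0 fell, in low-FASN hearts 5 rose and 4 fell, and between the lines 3 were higher and 1 lower in high-FASN hearts. The called shares over all probe sets tested were 14.4%, 24.3% and 18.6%, so the first and the last of these counts lay near the background. Rnf207, a protein that raises the surface level of the Kcnh2 channel, read 743 and 728 in high-FASN hearts, 908 and 844 in low-FASN hearts, and 473 and 500.0 in control. It rose by 0.58 (limma adjusted p = 0.00159) and 0.83 (adjusted p = 0.000131). Irx3, a transcription factor of the conduction system, rose by 0.41 and 0.38. The filamin gene Flna rose by 0.38 and 0.26. Atp1b2, a beta subunit of the sodium-potassium pump, rose by 1.22 and 0.82 from 71.1 and 52.0 in control.

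Other partners were called in low-FASN hearts and not in high-FASN hearts. Klf15, a transcription factor that drives Kcnip2 in heart, read 584 and 616 in high-FASN hearts, 399 and 426 in low-FASN hearts, and 625 and 587 in control. It fell by 0.54 in low-FASN hearts (limma adjusted p = 0.00236) and was higher by 0.52 in the high than in low-FASN hearts (adjusted p = 0.00418). Kcnip2 stood at 0.22 against control in low-FASN hearts, without a call. A link between Klf15 and Kcnip2 was not tested. Slc12a7, a potassium-chloride cotransporter, fell by 0.37 in low-FASN hearts and was higher by 0.54 in the high than in low-FASN hearts. The scaffold gene Dlg1 fell by 0.36 and the ubiquitin ligase gene Nedd4l by 0.32, and neither gene was called between the lines. Atp1b3 rose by 0.41 in low-FASN hearts. Fhl2, a LIM protein of heart muscle, differed between the lines, by 0.27. The sulfonylurea receptor genes Abcc8 and Abcc9, the regulatory subunits of ATP-sensitive channels, gave no call. The smallest adjusted p among them was 0.103, for Abcc9 between the lines.

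**Figure D4:**
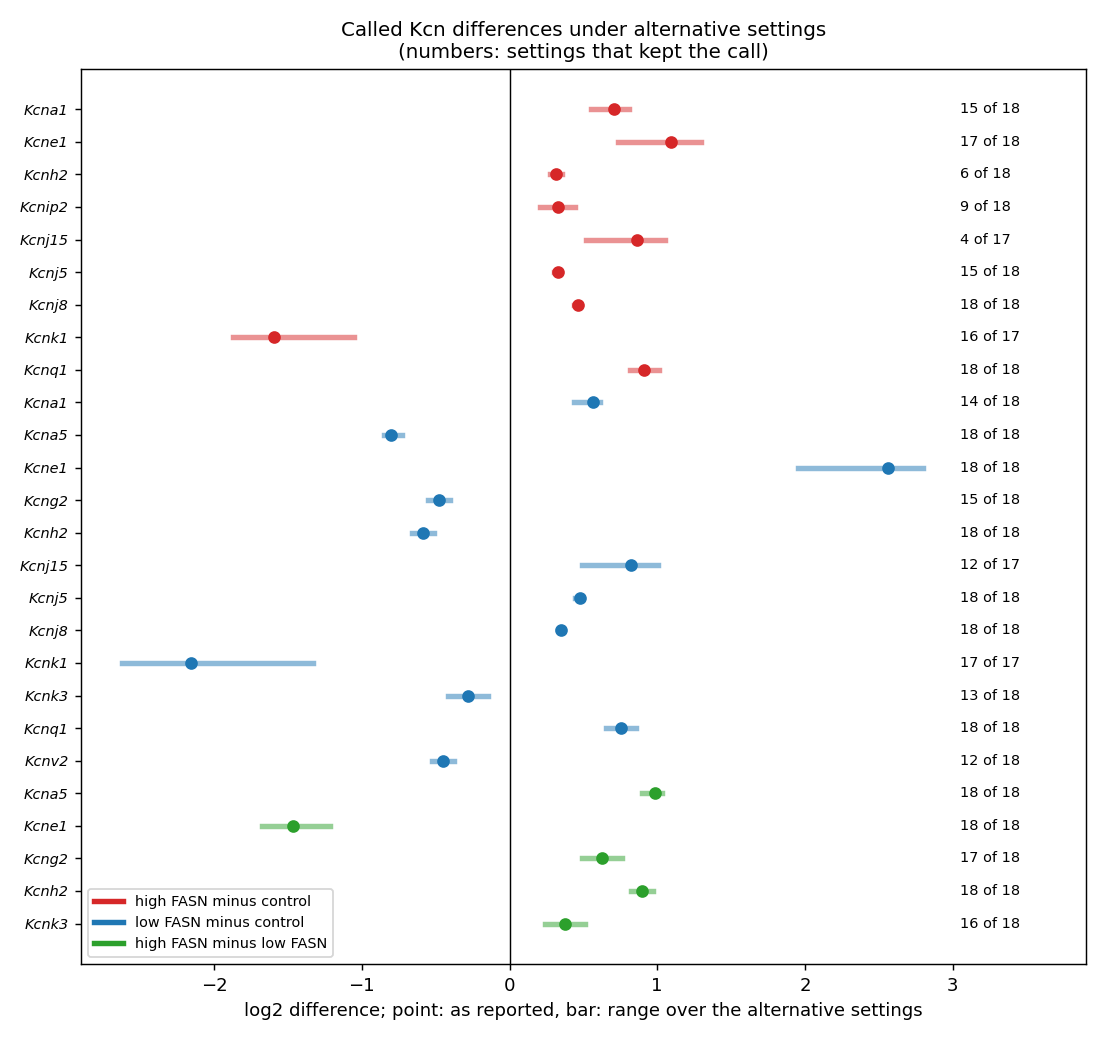
Log2 difference of each called Kcn gene as reported (point) and its range over the other settings on the same probe set (bar), coloured by comparison, with the number of settings that kept the call. No bar crossed 0, and Kcnj15, Kcnh2 and Kcnip2 in high-FASN hearts kept the call in the fewest settings, 4 of 17, 6 of 18 and 9 of 18.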

How the data were processed

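Total RNA of mouse heart tissue was labelled as biotinylated cRNA and read on Affymetrix arrays, per the labels' protocols. The authors deposited signal intensity values on a linear scale, made with GCOS per the submitters' processing notes. For GCOS, no version, algorithm or scaling target was given in the sources used here. The 2% trimmed mean of each deposited column was 300.002, so no further scaling was applied.

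Differences and folds refer to log2(signal + 16), a scale that understates changes of dim genes. Fits used limma 3.58.1 under R 4.3.3. After 64 control probe sets were set aside, 22519 of 45037 passed the filter and entered 1 linear model with 3 group means (trended eBayes, with 6.43 prior and 3 residual degrees of freedom). Adjusted p-values are Benjamini-Hochberg values over these 22519 probe sets, two-sided. Gene names come from the supplied annotation, where 34945 probe sets had 1 symbol, 932 several and 9160 none. RefSeq updated 0 Kcn symbols.

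The Kcn genes, subfamilies, partner and marker lists were chosen with earlier results of these data known. Named are all called Kcn genes, a fixed panel of cardiac channels, the 3 brightest dim genes and called partners. Genes named by other routes (Kcna2, Kcnh3, Kcnip1, Kcnmb4, Kcnq1ot1, Kcnt2, Kcna6, Kcne2, Kcne1l) were added after their values were seen. Alternatives covered scaling, pseudocount, filter, variance model, arrays, replicate block, probe set and each array left out. Plots were made in Python 3.11.15 (matplotlib 3.10.9).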

Additional observations from a re-analysis of the deposited data

Results flagged for a closer look

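Differences from control that were unlike in the lines were found for 5 Kcn genes by the test between the lines, which share the control arrays. The log2 difference, high minus low, was 0.99 for Kcna5, 0.90 for Kcnh2, 0.62 for Kcng2 and 0.38 for Kcnk3, and -1.47 for Kcne1. Kcnh2 was the only one of the 31 tested genes with calls in opposite directions, and its call in the high line was lost in 12 of 18 settings.

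Signal was also seen in 2 genes that were too dim on average for the test. In the low line both arrays exceeded the filter signal of 47.0 while both control arrays were below it. The mean was 61.8 for Kcna4 and 63.2 for Kcnmb1. Neither gene was in the main test. With no filter all 84 Kcn genes were tested, and the 9 called in the low line were all among the 12 called with the filter. Kcna4 and Kcnmb1 were thus not called.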

How the results depend on the processing

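The counts of called Kcn genes were recomputed under 19 other settings per comparison. With an untrended variance model the called share over all probe sets tested fell to 5.48% in the high line, 6.43% between the lines and 15.9% in the low line. The counts of Kcn genes fell from 9 to 5 in the high line and from 5 to 3 between the lines, and the low line kept 9 of 12. With 1 array left out they ranged from 2 to 9 in the high line, from 7 to 13 in the low line and from 4 to 7 between the lines, where the lone remaining array is assumed to vary like the others. All other settings stayed within 1.5 times. Over the 26 called differences, 0 changed sign on the same probe set. Kcnk3 between the lines reversed to -0.49 on its second-brightest probe set (adjusted p = 0.293). The 67 uncalled differences passed in 18 of 1217 recomputations, none with the sign turned, and a change of sign that stayed uncalled was not counted as a reversal.

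With the replicate number as a block, 8, 12 and 5 of 31 genes were called, beside 15.1%, 25.1% and 19.2% of all probe sets tested. The numbers pair nothing in the labels, and deviations of same-numbered arrays correlated at 0.0396, 0.0273 and 0.000398. Signal over background limits the family, since 53 of 84 genes were dim. With no filter 6, 9 and 5 of all 84 genes were called, beside 4.88%, 9.47% and 6.44% of all 45037 probe sets.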
